A study of Mus musculus with 3 samples.

Results

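The genes described here encode the Wnt ligands and the receptors that bind them at the cell surface: 19 Wnt genes, 10 frizzleds and the 5 co-receptors Lrp5, Lrp6, Ror1, Ror2 and Ryk. They were chosen by symbol, with no measured value in the rule but with earlier results of these data known, and make up 34 of the 20279 genes with a named probe. All 34 had a probe, 27 of them 1 probe and 7 of them 2. The arrays followed primary mesenchymal stem cells, the marrow stromal population that gives rise to bone and fat, isolated from the bone marrow of male mice aged 8 weeks. The day 0 group was taken before osteogenic induction. The day 3 and day 21 groups had been kept for that time with ascorbic acid at 50 μg/mL, which collagen maturation requires, and beta-glycerophosphate at 10 mM, a phosphate source for mineral. Each group had 1 array, so no difference had a replicate check, no test between days was possible and no p-value is given. The sources used here do not say how many mice were pooled.

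Wnt proteins are lipid-modified secreted signals. A Wnt binds the cysteine-rich domain of a frizzled, a receptor with a serpentine membrane part, and the partner receptor decides much of what follows. With Lrp5 or Lrp6 the complex protects beta-catenin from destruction and switches on genes through TCF and LEF factors. With Ror1, Ror2 or Ryk it acts on the cytoskeleton, calcium and planar polarity instead. In bone marrow stroma, beta-catenin signalling is known to favour the osteoblast fate over the fat cell fate, and human LRP5 is a classic bone mass gene.

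Signals are the processed spot intensities of the arrays, and differences are log2 values after each array was scaled to its 75th percentile, later day minus earlier day. A member was measured in a comparison where both spots carried the scanner software's mark for a signal well above background. For a member above background on 1 array only, the fold is a bound, written as at least, against the dim spot itself or, if that is higher, the faintest probe above background on that array. Each error given as SD comes from the software's error model for the spot. A further set of 399 probes spotted 10 times on each array gave an SD of a log2 difference of 0.30 for signals under 50, 0.12 for signals from 50 to 500 and 0.08 above 500. The SD from repeated probes was derived from the spread of spots within an array and leaves out differences between hybridisations and slides. Neither kind of error covers cultures or animals. Each member probe had a single spot per array, with 0 of these spots marked as outliers and 0 saturated. The mark for a signal well above background was carried by 63.8% of all genes at day 0, 64.7% at day 3 and 66.2% at day 21. Day 0 and day 21 were on one slide and in one scan, whereas day 3 was on the other slide, and in differences that involve day 3 the effect of slide cannot be told apart from that of day.

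Several lists of cell type markers differed between the same arrays, and others differed less. Of 9 osteoblast markers, 4, 6 and 8 were above background on the day 0, day 3 and day 21 arrays, with summed signals of 62399, 67860 and 55971, most of it from the collagen gene Col1a1. At day 21 the matrix genes Bglap2 and Spp1 were 11.9-fold and 6.67-fold higher than at day 0, and Ibsp, Alpl and Phex, not above background at day 0, were higher by at least 63.7-fold, 29.1-fold and 11.5-fold. The osteoblast factor Sp7 was not above background on any array, and Runx2 had signals of 18.7, 20.7 and 16.0. Of 8 adipocyte markers 4, 8 and 8 were above background, and their summed signal was 1364, 6520 and 229824 at day 0, day 3 and day 21. The summed signal of 6 cell division genes was 14694, 7922 and 1250, and that of 5 smooth muscle genes 555439, 211022 and 109374. Of the 6 leukocyte and macrophage markers with a probe 4 were above background on each array. Ptprc, the pan-leukocyte marker, and Adgre1 were not on any. The sums were 10309, 9378 and 16474, of which Itgam alone made up 9633, 8333 and 15404. Of 6 endothelial markers 3, 4 and 4 were above background, with sums of 3633, 4978 and 3250, nearly all of it from Kdr. All 9 mesenchymal stromal markers were above background on each array, with sums of 70048, 123418 and 174745. Most of that came from Thy1, Cxcl12 and Ly6a. At day 21 against day 0, Pdgfra, Ly6a and Cxcl12 were 34.7-fold, 9.20-fold and 4.95-fold higher and Cd44 was 6.17-fold lower. The other stromal markers stayed within 2-fold between these arrays. Of 7 chondrocyte markers 6, 7 and 7 were above background, with sums of 12543, 14584 and 65391. The matrix gene Comp alone made up 434, 2530 and 48888 of these. The list was split in direction. For day 21 minus day 0, Comp, Prg4 and Sox9 had log2 differences of 6.67, 6.16 and 1.24. Those of Col10a1, Acan and Col2a1 were -1.27, -0.97 and -0.32. Ucma, not above background at day 0, was higher by at least 339-fold. For day 3 minus day 0, Col10a1 and Acan were at -3.15 and -1.77, while Comp, Prg4 and Sox9 were at 2.52, 3.59 and 1.48. In such bulk RNA fewer cells of a type cannot be told apart from less RNA per cell. The part of these shifts in the results on Wnt and frizzled genes was not tested.

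Of the 34 members, 24 (70.6%) were well above background on at least 1 array, against 69.6% of all genes, and 21 were so on all 3 arrays, as were 60.3% of all genes. The share differed by role. It was 10 of 19 Wnt ligands (52.6%), 9 of 10 frizzleds and 5 of 5 co-receptors. The 10 members not above background on any array were Wnt2, Wnt2b, Wnt3, Wnt3a, Wnt7a, Wnt7b, Wnt8a, Wnt8b, Wnt9b and Fzd10, with signals between 2.05 and 11.3. Among them is Wnt3a, the ligand most used to set off beta-catenin signalling in culture. By array, 22, 23 and 23 members were above background.

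**Figure D1:**
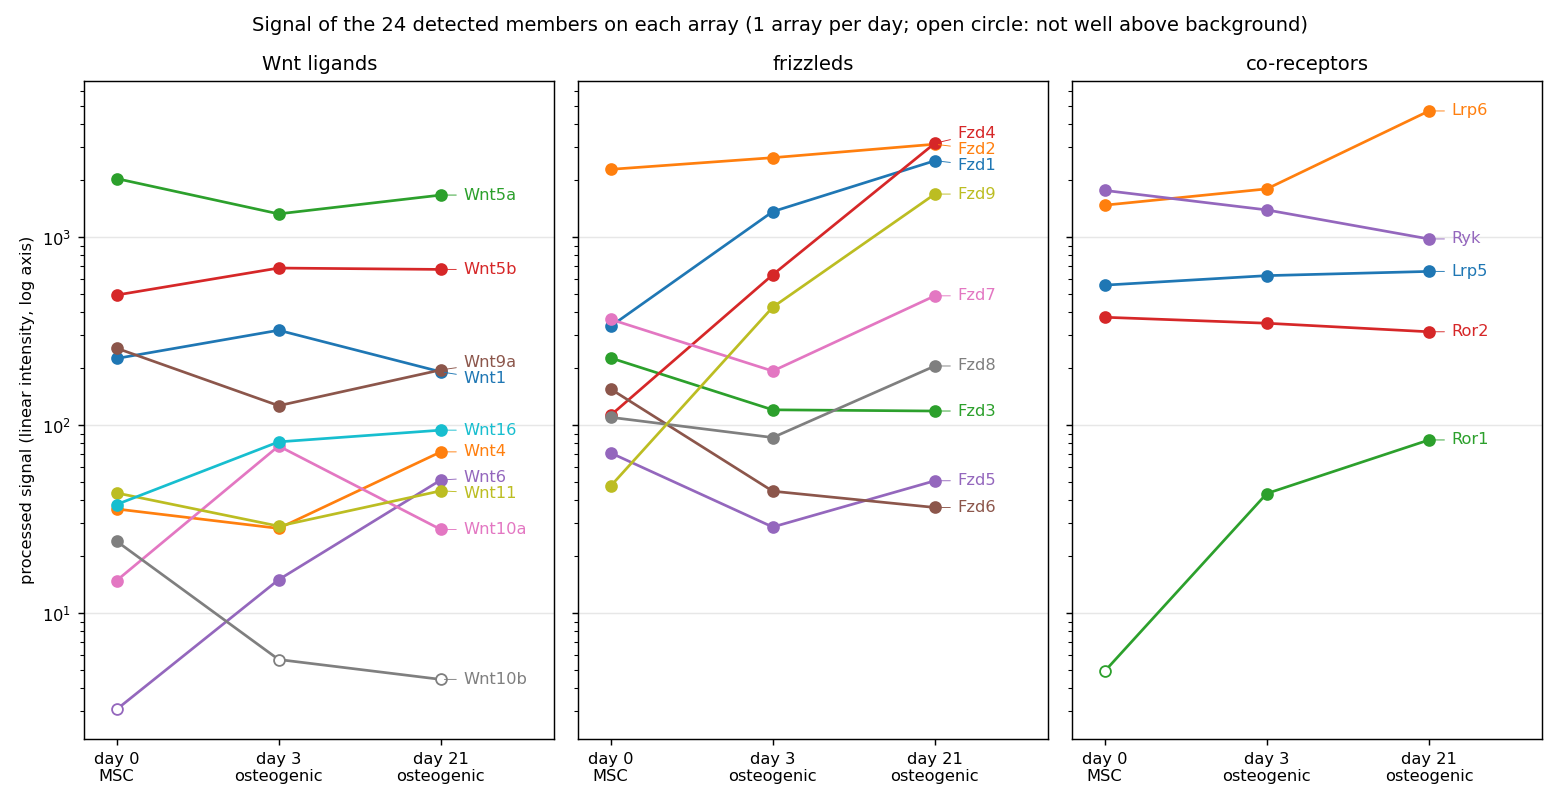
Processed signal (linear intensity on a log axis) of the 24 members above background on at least 1 array, by day, with 1 array per day and 1 line per gene. Filled circles are well above background and open circles are not; Fzd9, Fzd4 and Fzd1 climb from day 0 to day 21, whereas Wnt5a and Fzd2 stay within 2-fold.

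Among members measured on both arrays, the frizzleds held the largest differences from day 0 at day 21, in both directions. Fzd9, Fzd4 and Fzd1 were higher at day 3 and again at day 21, Fzd6 and Fzd3 were lower than at day 0 at day 21, and the remaining measured frizzleds stayed within 2-fold between day 0 and day 21. Of 9 measured frizzleds, 3 were at least 2-fold higher and 2 lower at day 3 against day 0, 3 higher and 2 lower at day 21 against day 0, and 4 higher and 0 lower at day 21 against day 3. Over all measured genes the shares were 7.73% higher and 7.85% lower, 12.8% and 16.8%, and 7.75% and 7.11% in the same order. Their median difference was -0.38, 0.30 and 0.77 in these comparisons, beside -0.08, -0.21 and -0.10 over all measured genes. The first 2 comparisons share the day 0 array.

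Fzd9, a receptor whose loss lowers bone mass in mice, had a signal of 47.3 at day 0, 423.3 at day 3 and 1692 at day 21. Each array was brighter than the one before. The difference was 3.14 (SD 0.22), or 8.83-fold, at day 3 and 5.01 (SD 0.22), or 32.3-fold, at day 21 against day 0. With normexp background correction, which adds an offset and compresses dim spots, these were 2.18 and 4.005. Only 0.67% of 12387 measured genes had a larger upward difference between these arrays. Fzd4, which also serves as the receptor of norrin, a ligand unrelated to Wnts, had signals of 112.5, 629.6 and 3152. Its difference was 2.46 (SD 0.21) at day 3 and 4.66 (SD 0.21), or 25.3-fold, at day 21, and 0.83% of genes had a larger upward one. Normexp correction gave 1.88 and 4.01. From day 3 to day 21 Fzd4 differed by 2.20 and Fzd9 by 1.87. Both were thus at least 2-fold higher in each step, as were 2.29% of the 12221 genes above background on all 3 arrays. Of the members 0 were at least 2-fold lower in each step, as were 1.6% of genes. Fzd1, a receptor of the beta-catenin branch, had signals of 334.8, 1364 and 2545. It was 4.02-fold higher at day 3 and 6.87-fold higher at day 21 than at day 0. On the log2 scale, with the scaling used here, the later step was the smaller, at 0.77 (SD 0.20). Under spike-in scaling the steps were close in size, 1.301 to day 3 and 1.215 from day 3 to day 21.

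These 3 receptors had the largest differences between days among members above background on all 3 arrays. The DNA just upstream of each is shown for that reason. Each window holds the 250 bases that end at the base before the gene's start, from RefSeq's promoter table of the build GRCm38.p6. Fzd9 is at chr5:135251048-135251297 on the minus strand, Fzd4 at chr7:89404116-89404365 on the plus strand and Fzd1 at chr5:4758217-4758466 on the minus strand. Capitals mark matches to any of 5 short motifs, searched on both strands, with overlapping copies counted separately. CTTTGA is the core bound by TCF and LEF factors. RUNX factors, which include the osteoblast regulator Runx2, bind the letters TGTGGT. The GC box of Sp factors was searched as GGGCGG. The box bound by the factor NF-Y was searched as CCAAT, and the box bound by the TATA-binding protein as TATAAA. The table held no entry for Wnt10a, which had the next largest difference among members above background on all 3 arrays.
Fzd9: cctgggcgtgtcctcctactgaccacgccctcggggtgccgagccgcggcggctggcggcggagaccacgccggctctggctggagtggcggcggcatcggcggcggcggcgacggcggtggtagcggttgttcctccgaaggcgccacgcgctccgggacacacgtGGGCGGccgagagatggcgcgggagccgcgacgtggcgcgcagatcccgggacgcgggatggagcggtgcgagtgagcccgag
Fzd4: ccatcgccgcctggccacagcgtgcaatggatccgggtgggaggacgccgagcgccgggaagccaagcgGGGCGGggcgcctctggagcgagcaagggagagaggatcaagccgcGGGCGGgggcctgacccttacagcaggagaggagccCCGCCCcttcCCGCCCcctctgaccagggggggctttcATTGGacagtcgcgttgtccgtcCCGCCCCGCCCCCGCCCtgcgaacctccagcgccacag
Fzd1: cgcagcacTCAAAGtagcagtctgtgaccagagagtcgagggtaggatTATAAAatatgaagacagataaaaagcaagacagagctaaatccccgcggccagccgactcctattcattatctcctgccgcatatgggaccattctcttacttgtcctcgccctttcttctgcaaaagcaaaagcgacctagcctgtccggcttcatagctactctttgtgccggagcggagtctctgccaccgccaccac

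The 3 windows had little in common in these letters. Fzd4 held 7 GC boxes and a copy of the NF-Y box in a window of 72.8% G and C. Fzd9 held 1 GC box at 76.4% G and C, and Fzd1, at 51.2%, held none but had 1 match to the TCF and LEF motif, from base 242 to base 237 before the start, and 1 to the TATA box, from base 202 to base 197. No RUNX match was present in any of the 3, which says only that these letters are not in these windows. The window of Ror1, not above background at day 0 and so not printed, held 1 RUNX match. Over the 27 windows of the 24 members in the table, GC boxes were found in 77.8%, against 32.7% of all 32851 windows of that length, and the median G and C content was 71.6% against 52.4%. The TCF and LEF letters were in 14.8% of member windows and 13.8% of all, those of RUNX in 3.70% and 14.0%, those of the NF-Y box in 33.3% and 33.8%, and the TATA box in 11.1% and 12.4%. A match is a description of the sequence and not a measured site.

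Fzd6 and Fzd3, closely related frizzleds best known from planar cell polarity and hair and axon patterning, were the ones lower at day 21. Fzd6 had signals of 155.4, 44.5 and 36.4, so the day 0 array stood above the other two. It was 3.54-fold lower at day 3, a difference of -1.83 (SD 0.23), and 4.73-fold lower at day 21, a difference of -2.24. Normexp correction gave -1.06 and -1.25. Fzd3 had signals of 227.4, 120.4 and 118.7. Its difference was -0.94 (SD 0.21) at day 3 and -1.09 (SD 0.21) at day 21, and the latter came to -0.92 when the 75th percentile was taken over detected probes and to -0.80 with normexp background correction, which ended the 2-fold call.

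Fzd7 and Fzd5 on their brighter probes and Fzd8 on its only probe were dimmer at day 3 than on the other arrays. Fzd8, a receptor that pairs with Lrp6, had signals of 109.9, 85.8 and 206.0. With the scaling used here it was within 2-fold of day 0 on both later days, while spike-in scaling put it at -1.08 at day 3. It was 2.20-fold higher at day 21 than at day 3 (difference 1.14, SD 0.21, or 0.67 with normexp correction). Fzd7, which is common in stem and progenitor cells, had signals of 364.8, 193.6 and 486.5 on 1 probe and 40.8, 59.6 and 54.9 on the other. The dip at day 3 was on the brighter probe only, and the difference of day 21 from day 3 was 1.20 on it and -0.25 on the dimmer probe. Between day 0 and day 21 both Fzd7 probes gave nearly the same value, 0.27 and 0.28. Fzd5, also of the beta-catenin branch, had signals of 71.1, 28.7 and 50.5 on 1 probe and 28.9, 24.7 and 25.4 on the other, with day 3 differences of -1.33 (-0.59 with normexp correction) and -0.25. Fzd2, a receptor for Wnt5a, stayed within 2-fold, with signals of 2290, 2641 and 3115 on 1 probe and 143.7, 173.9 and 245.0 on the other. At day 21 against day 0 the probes differed by 0.30 (SD 0.20) and 0.62.

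**Figure D2:**
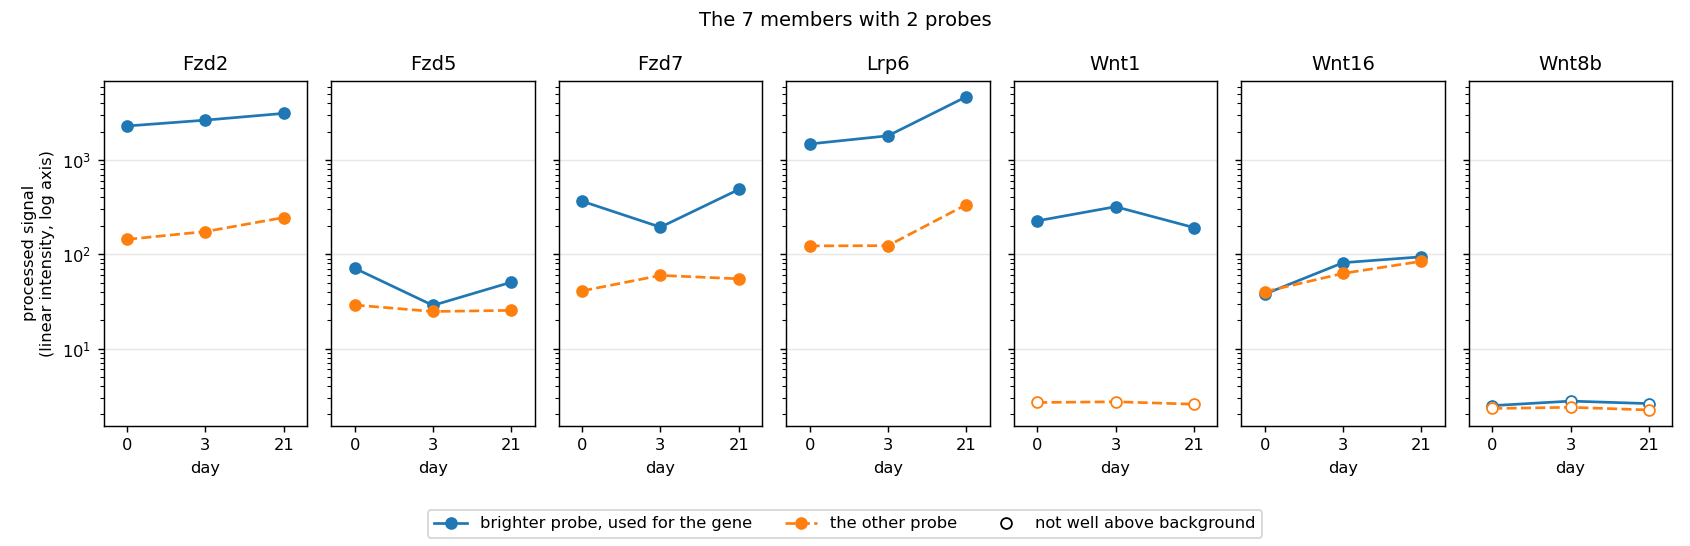
Processed signal (linear intensity on a log axis) by day for the 7 members with 2 probes; solid lines are the probe used for the gene, dashed lines the other, and open circles are not well above background. The probes of Lrp6, Fzd2 and Wnt16 are all brightest at day 21, those of Fzd7 part at day 3, and the second Wnt1 probe stays at 2.57 to 2.73.

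Of 8 ligands measured at both day 0 and the later day, 2 were at least 2-fold higher and 1 lower at day 3, and 1 higher and 0 lower at day 21. Of 9 measured at both day 3 and day 21, 2 were higher and 1 lower at day 21. At day 21 against day 0 the 1 of 8 higher was close to the 12.8% of all genes, and the shares of all genes in the other comparisons are those given for the frizzleds. The medians were 0.05, 0.10 and 0.20, beside -0.08, -0.21 and -0.10 over all measured genes.

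Wnt5a and Wnt5b, close relatives that signal mainly outside the beta-catenin branch, were well above background throughout. Wnt5a had signals of 2045, 1327 and 1671, and its differences from day 0 were -0.64 (SD 0.20) at day 3 and -0.44 (SD 0.20) at day 21. Wnt5b had signals of 491.2, 684 and 672.2, with differences of 0.46 and 0.31, the first of which turned to -0.25 under spike-in scaling. Neither passed 2-fold in any comparison with the scaling used here, while spike-in scaling put Wnt5a at -1.35 at day 3.

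Wnt10a, Wnt10b and Wnt6 are ligands known to hold back fat cell formation in stromal precursors, and they took different courses. Wnt10a was brightest at day 3, with signals of 14.9, 77.3 and 27.8. It was 5.13-fold higher at day 3 than at day 0 (difference 2.36, SD 0.30) and 3.04-fold lower at day 21 than at day 3, while day 21 and day 0 differed by 0.76 (SD 0.31). With normexp correction these values were 1.06 for the first and -0.85 for the second. Wnt10b was above background at day 0 only, with signals of 24.1, 5.66 and 4.43, and was at least 2.32-fold lower at day 3 and at least 3.24-fold lower at day 21. Wnt6 went the other way, with signals of 3.07, 15.0 and 51.0. Its day 0 spot was not above background, so the difference was at least 1.45-fold at day 3 and at least 4.51-fold at day 21. It differed by 1.63 (SD 0.31) between day 21 and day 3, or by 0.47 with normexp correction.

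Wnt16, a ligand that osteoblasts make and that protects cortical bone, was the ligand higher at both later days on 2 probes. Its signals were 37.8, 81.3 and 93.9 on 1 probe and 40.1, 62.7 and 84.1 on the other, so day 0 was the dimmest array on both. Relative to day 0 the first probe differed by 1.09 at day 3 and 1.17 at day 21, and the second by 0.63 and 0.92, which is short of 2-fold. Under spike-in scaling the first probe gave 0.38 and 0.90, and with normexp correction 0.51 and 0.53. Wnt4, known from kidney and gonad development, had signals of 35.8, 28.2 and 72.0 and was 2.34-fold higher at day 21 than at day 3 (difference 1.22, SD 0.24; 0.44 with normexp correction). Wnt9a, a joint-forming ligand, had signals of 256.3, 126.7 and 196.3, with a day 3 difference of -1.04 (SD 0.21). That difference came to -0.97 with the percentile of detected probes, -0.77 with normexp correction and -1.74 under spike-in scaling. Wnt11, known from cell movement in the embryo, had signals of 43.5, 29.0 and 44.6. With the scaling used here it stayed within 2-fold, while spike-in scaling put it at -1.31 at day 3.

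Wnt1, whose human counterpart is mutated in a brittle bone disease, had 2 probes that did not match. One gave signals of 225.9, 319.1 and 191.8, within 2-fold on all days, and the other gave 2.68, 2.73 and 2.57, not above background on any array. Whether Wnt1 RNA was present therefore rests on which probe is used, and the cause of the mismatch was not tested. Several Wnt genes lie side by side in the genome with no other protein-coding gene listed between them: Wnt6 with Wnt10a, Wnt10b with Wnt1, Wnt3a with Wnt9a and Wnt9b with Wnt3 (gene order in the RefSeq table of GRCm38.p6). Neighbours could differ. From day 3 to day 21 Wnt6 was 3.10-fold higher and its neighbour Wnt10a 3.04-fold lower. Wnt9a was above background on all arrays while Wnt3a, at 2.75, 2.78 and 2.63, was not on any.

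Of the co-receptors, Lrp6 and Ror1 were higher at day 21, Ryk was lower by a narrow margin, and Lrp5 and Ror2 stayed within 2-fold throughout. Lrp6, which passes the Wnt signal to the beta-catenin destruction complex, had signals of 1476, 1802 and 4681 on 1 probe and 122.5, 123.3 and 336.0 on the other. Day 21 was the brightest array on both probes, with differences from day 0 of 1.52 (2.86-fold) and 1.31 (2.48-fold) and from day 3 of 1.25 and 1.32. Its relative Lrp5 had signals of 554.5, 622.9 and 656.1 and a difference of 0.10 (SD 0.20) at day 21, which turned to -0.17 under spike-in scaling. Ror1, a receptor kinase-like protein that binds Wnt5a, had signals of 4.90, 43.2 and 83.3. With the day 0 spot not above background, the day 3 array was higher by at least 4.18-fold and the day 21 array by at least 7.37-fold. Ror2, its relative and the best known Wnt5a receptor in the skeleton, had signals of 374.2, 347.8 and 313.2, with a difference of -0.40 (SD 0.20) at day 21. Ryk, an atypical receptor with an inactive kinase domain, had signals of 1769, 1393 and 976.2. At day 21 it was 2.01-fold lower than at day 0 (SD 0.20 on the log2 scale), and the log2 difference was -0.86 with quantile normalization, -0.83 with the percentile of detected probes and -0.89 with normexp correction.

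Taking the members together, day 3 against day 0 gave 5 of 21 measured members (23.8%) at least 2-fold higher and 3 (14.3%) lower, against 7.73% (higher) and 7.85% (lower) of 12455 measured genes. Past 2-fold in either direction were 38.1% of these members and 15.6% of these genes. The higher ones were Fzd9, Fzd4, Wnt10a, Fzd1 and Wnt16, and the lower ones Fzd6, Fzd5 and Wnt9a. By a bound, 1 more was higher (Ror1) and 1 lower (Wnt10b). The bound was at least 2-fold for 45.7% of the genes above background at day 3 only and for 38.1% of those above background at day 0 only. Under spike-in scaling, which moved the median of all measured genes from -0.08 to -0.79, the members split into 4 higher and 10 lower, and all genes past 2-fold into 9.18% higher in place of 49.6%. Normexp correction gave 4 members higher and 1 lower, without Wnt16, Fzd5 and Wnt9a. Over all genes it gave 582 higher and 550 lower of 12450. Spike-in scaling, unlike normexp correction, moves all members by the same amount and so keeps their order.

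At day 21 against day 0, both on the same slide, 5 of 21 measured members (23.8%) were at least 2-fold higher and 3 (14.3%) lower, against 12.8% (higher) and 16.8% (lower) of 12387 genes. The higher ones were Fzd9, Fzd4, Fzd1, Lrp6 and Wnt16, and the lower ones Fzd6, Fzd3 and Ryk. By a bound, Ror1 and Wnt6 were also higher and Wnt10b lower, where the bound was at least 2-fold for 55.5% and 72.8% of the genes above background on the later or the earlier array only. With the percentile of detected probes, which put the median of all genes at -0.04 in place of -0.21, 6 members were higher and 1 lower, and 54.4% of all genes past 2-fold were higher in place of 43.2%. Normexp correction gave 4 higher and 1 lower, without Wnt16, Fzd3 and Ryk. Over all genes it gave 1141 higher and 1407 lower of 12382. With spike-in scaling 4 members were higher and 3 lower, and 28.3% of all genes past 2-fold were higher. Past 2-fold in either direction were 38.1% of measured members and 29.5% of measured genes.

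**Figure D3:**
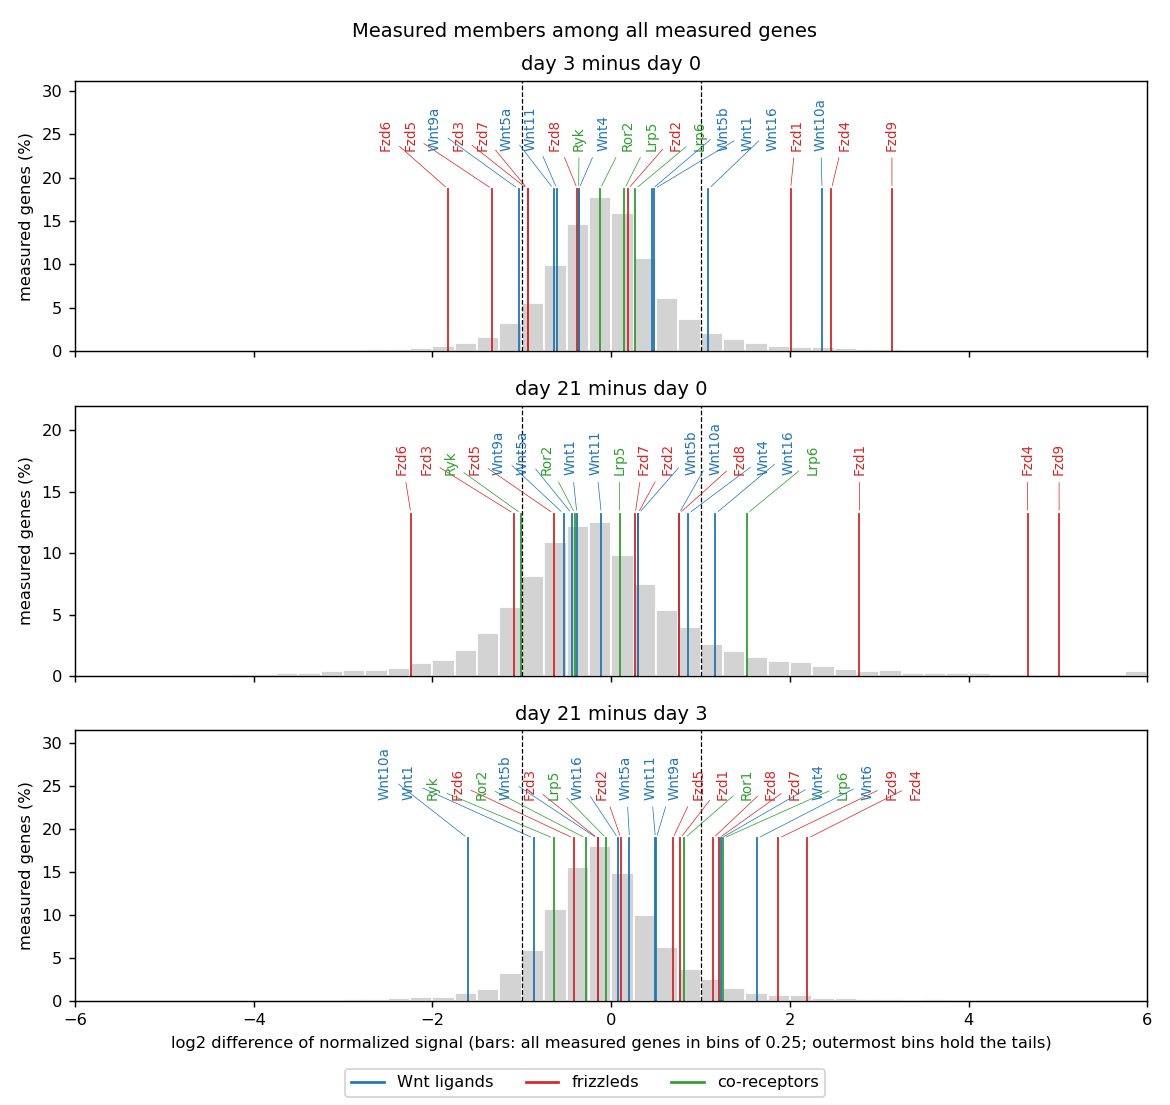
Share of all measured genes (grey bars, percent, bins of 0.25, the outermost holding the tails) by log2 difference in each comparison, with each measured member as a line coloured by role and dashed lines at 2-fold. Most members lie in the body of the distribution; Fzd9 at 5.01 and Fzd4 at 4.66 lie in its upper end at day 21 against day 0.

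Between day 3 and day 21, 7 of 23 measured members (30.4%) were at least 2-fold higher and 1 (4.35%) lower, against 7.75% (higher) and 7.11% (lower) of 12739 genes. Past 2-fold in either direction were 34.8% of these members and 14.9% of these genes. No member had a bound here (0 higher, 0 lower), where the bound was at least 2-fold for 37.2% and 60.6% of the genes above background on the later or the earlier array only. The higher ones were Fzd4, Fzd9, Wnt6, Lrp6, Wnt4, Fzd7 and Fzd8, and the lower one was Wnt10a. Of these, Fzd7 changed direction on its other probe. Normexp correction gave 4 higher and 0 lower, without Wnt6, Wnt4, Fzd8 and Wnt10a. Over all genes it gave 613 higher and 466 lower of 12738. Spike-in scaling gave 10 higher and 1 lower, with the median of all genes at 0.34 in place of -0.10 and 85.0% of all genes past 2-fold higher in place of 52.1%. The percentile of detected probes gave 7 members higher and 1 lower, with 62.6% of all genes past 2-fold higher.

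**Figure D4:**
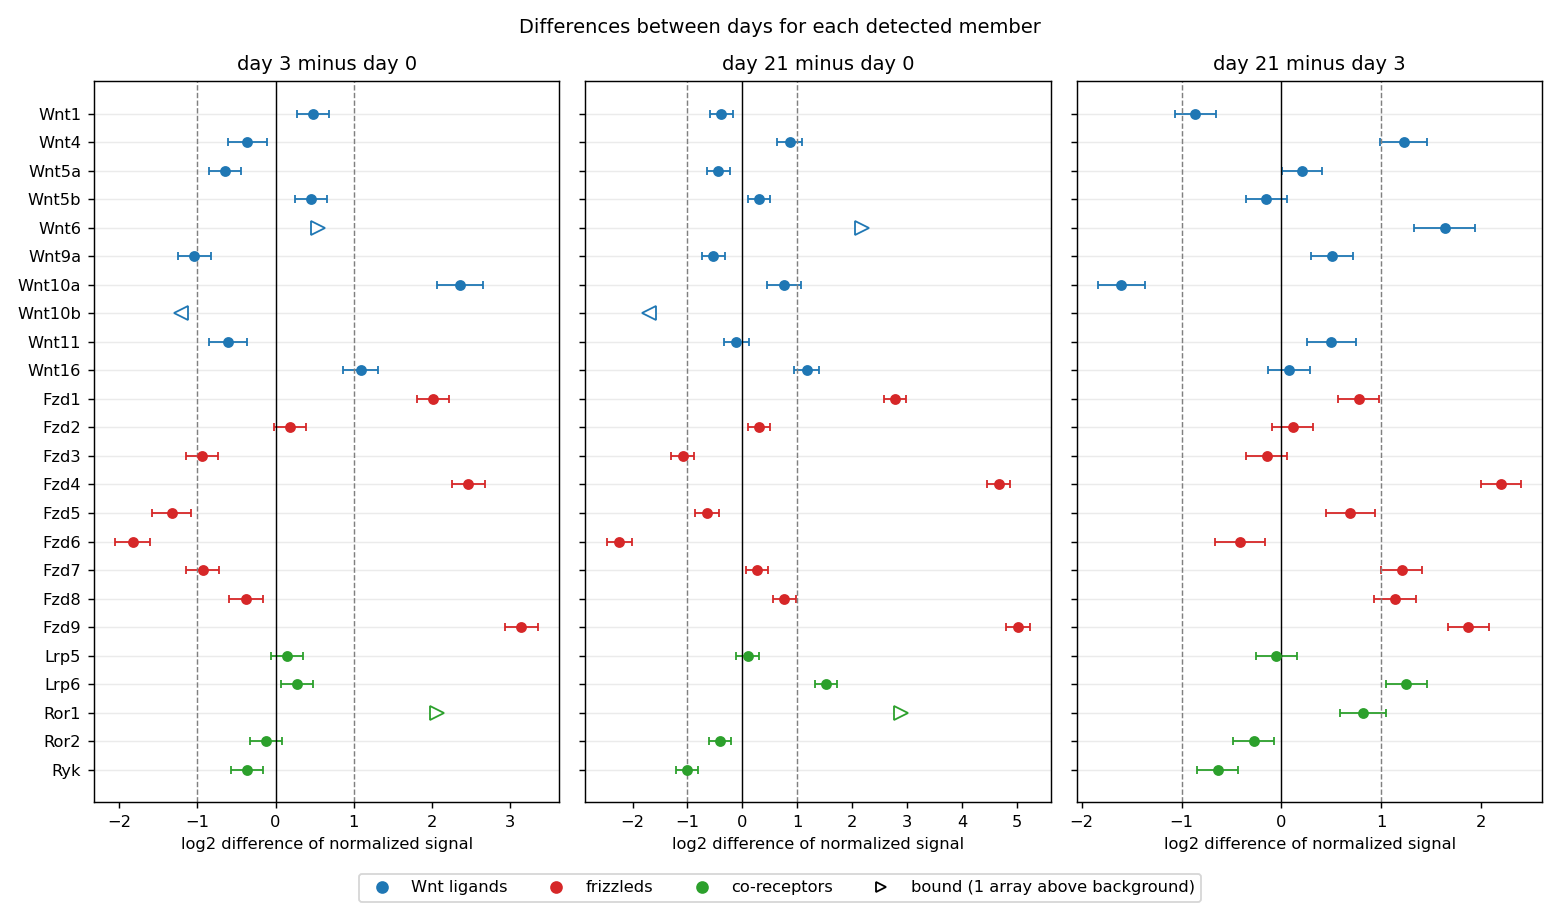
Log2 difference of normalized signal for each of the 24 detected members in the 3 comparisons, with horizontal bars of 1 SD from the scanner software's error model, dashed lines at 2-fold and open triangles for bounds. Ligands are blue, frizzleds red and co-receptors green; Fzd9, Fzd4 and Fzd1 lie beyond 2-fold at day 3 and at day 21 against day 0.

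Other genes of the pathway are given as counts at day 21 against day 0, beside the 12.8% of all genes higher, the 16.8% lower and the median of -0.21. Of 6 measured genes in the list of secreted antagonists 4 were at least 2-fold higher and 1 lower (median 1.91). The lower one was Cthrc1 (-1.16), which is known as a cofactor of Wnt and Ror2 binding and not as an antagonist. Among genes with only a bound, 4 passed 2-fold upward and 1 downward, where it passed 2-fold for 55.5% (higher) and 72.8% (lower) of all genes above background on 1 of these arrays. Sfrp1, which binds Wnts with a frizzled-like domain, was at 6.39 and Wif1, another Wnt-binding inhibitor, at 3.38. Among R-spondins and the proteins that govern frizzled turnover 4 of 6 were higher and 1 lower (median 1.84). Lgr5, an R-spondin receptor, had signals of 16.4, 123.5 and 837.4, and the secreted agonist Rspo1 had signals of 30.2, 113.0 and 1318, with differences of 5.53 and 5.30. Its fellow agonist Rspo3 was at 2.12, whereas the receptor Lgr4 was at -1.45. The ubiquitin ligase Znrf3, which removes frizzleds from the surface, was at -0.08 and its relative Rnf43 was not above background on any array.

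Other surface partners were higher in 4 of 10 measured cases and lower in 0, with a median of 0.55. Gpc3, a heparan sulfate proteoglycan, was at 2.28, and Reck, a partner in Wnt7 reception, at 1.83. Norrin, the other ligand of Fzd4, is encoded by Ndp, which had signals of 2.79, 32.2 and 85.0, above background on the later arrays only, a difference of at least 7.52-fold at day 21. Tspan12, which aids norrin reception by Fzd4, was at 0.58. Of 3 genes for Wnt secretion and its opposite, the acyltransferase Porcn, which adds the lipid Wnts need, was higher by 1.78, the carrier Wls was at -0.75 and the Wnt-inactivating esterase Notum at -0.66.

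Of the 11 members of the cytoplasmic relay, 0 passed 2-fold upward and 1 downward (Dvl1, -1.12), with a median of -0.25, and beta-catenin, Ctnnb1, was at 0.12. Of 8 planar cell polarity genes 2 were higher (Daam2, 1.52, and Prickle1, 1.47) and 1 lower (Daam1, -1.03). Of 8 nuclear factors and common target genes 1 was higher (Nkd1, 2.25) and 2 lower (Ccn4, -2.70, and Myc, -1.58), and by a bound 1 more was higher and 1 lower. The target gene Axin2, a common readout of beta-catenin signalling, was not above background on any array, with signals of 2.38, 6.40 and 2.25. These lists were written with the family's earlier results known and are given as counts.

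**Figure D5:**
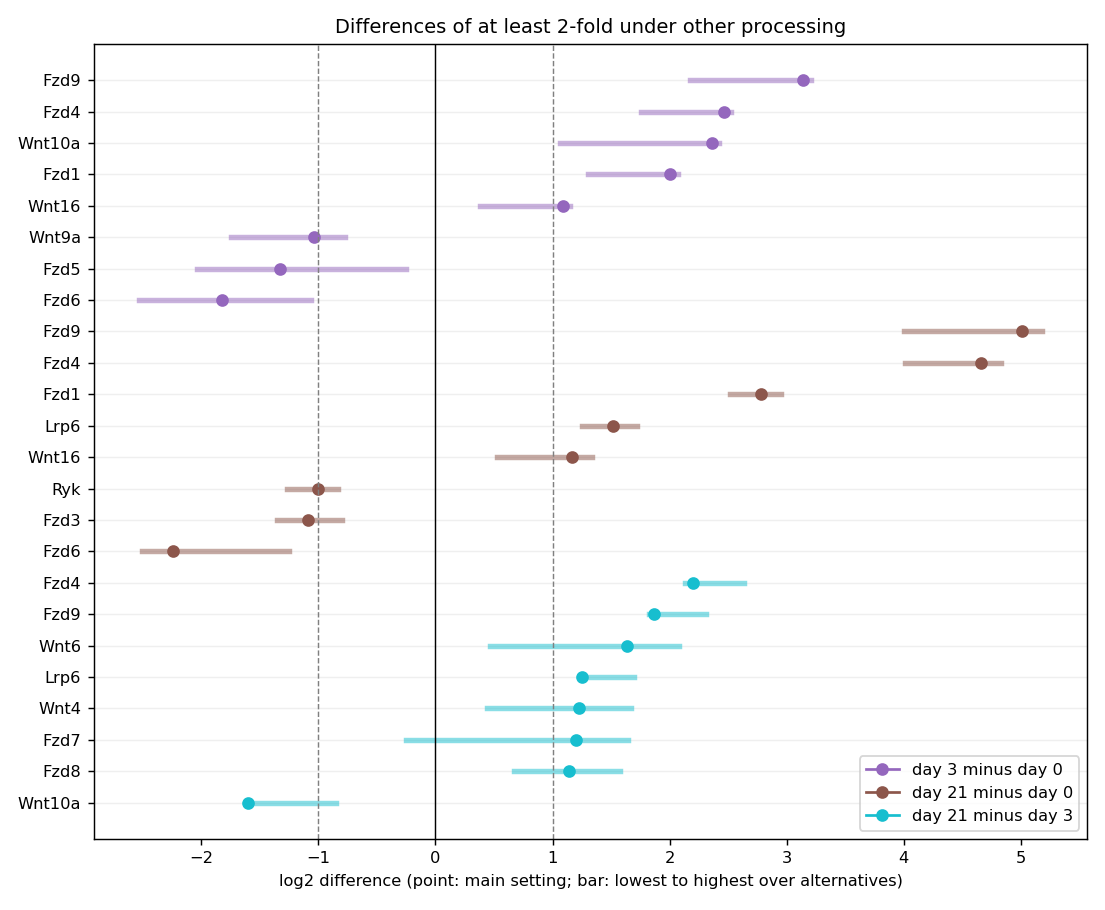
Each of the 24 member differences of at least 2-fold (point, log2) with the lowest to highest value over the alternative ways of processing (bar), coloured by comparison, with dashed lines at 2-fold. Of the 24, 13 stay beyond 2-fold throughout, among them all those of Fzd9, Fzd4, Fzd6 and Lrp6, and the bar of Fzd7 for day 21 minus day 3 crosses 0.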

How the data were processed

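Total RNA was labelled with Cy3 and hybridised to 1-colour Agilent mouse arrays, 1 per group, per the labels' protocols. Their deposited scanner files give each spot's intensity on a linear scale, made by the authors with Agilent Feature Extraction (10.10.1.1 per the file headers, 12.0 per the submitters' processing notes), which subtracts background within an array. No scaling between arrays is recorded in the headers. The deposited value table holds the same intensity (largest relative difference 0), so it is linear and not centred. The spot marks, such as well above background, are also those of the authors' deposited files.

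Log2 of the processed signal minus the array's 75th percentile over 59305 non-control spots (signals of 172.2, 174.6 and 190.7 at day 0, 3 and 21) was averaged over a probe's usable spots, leaving out outlier-marked ones; 55664 probes remained. Probes were named by transcript accession without version through RefSeq's GRCm38.p6 gene table: 26755 matched 1 gene and 28909 stayed unnamed. A gene was represented by its brightest probe, and was above background when at least 50% of its spots were. With 1 array per group, differences were called at 2-fold, with no test; the number of arrays limits the precision. All 34 members are accounted for; in the other lists up to 3 measured genes with the largest day 21 differences are named, and Lgr4, Ctnnb1, Axin2, Znrf3, Rnf43, Ndp, Tspan12, Cthrc1 and the single marker genes were named for their role after their values were seen. The members and lists were chosen with earlier results of these data known. The code for the calls was tested on simulated data. Alternatives covered scaling, background correction (normexp, offset 50, limma 3.58.1 in R 4.3.3), outlier spots, probe choice, background mark and fold; the rest used Python 3.11.15.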

Additional observations from a re-analysis of the deposited data

How the results depend on the processing

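Of 24 member differences of at least 2-fold, 23 kept their direction and 13 stayed beyond 2-fold under the 9 alternatives that recompute differences. The exception in direction was Fzd7 at day 21 against day 3, which was -0.25 on its dimmer probe. Of the 41 differences within 2-fold, 14 changed sign under at least 1 of them. Counts of members at day 3 against day 0 became 10 lower under spike-in scaling and 1 lower under normexp correction. They became 8 higher and 5 lower with the weaker background mark, 7 lower at 1.5-fold and 1 lower at 3-fold. Over all genes 963 were higher and 978 lower of 12455 in the main setting. Lower were 4353 under spike-in scaling, 550 under normexp correction, 2395 at 1.5-fold and 314 at 3-fold. The weaker mark gave 1426 higher and 1343 lower of 14583. At day 21 against day 0 the member counts became 1 lower with the percentile of detected probes and 1 lower under normexp correction. They became 8 higher at 1.5-fold, and 3 higher and 1 lower at 3-fold. Over all genes 1582 were higher and 2078 lower of 12387 in the main setting. Lower were 1572 with the percentile of detected probes and 1407 under normexp correction. Higher were 2462 at 1.5-fold, and at 3-fold 951 were higher and 839 lower. At day 21 against day 3 the member counts became 4 higher and 0 lower under normexp correction, 3 lower at 1.5-fold and 3 higher at 3-fold. Over all genes 987 were higher and 906 lower of 12739 in the main setting, and 613 and 466 under normexp correction. At 1.5-fold 2494 were lower and at 3-fold 435 were higher. Normexp used an offset of 50 on the median spot signal, since the files read here have no mean signal column, and so compresses dim spots by its construction; for the other settings the cause was not tested. Naming by a gene name column was not run, as no such column is in the files read here. Leaving out a replicate was not possible with 1 array per group. No paired analysis was possible because each group has 1 sample. Signal over background limits dim members of each role, as with Fzd5 at day 3 against day 0, which was -0.59 under normexp correction.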

Other observations

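With the weaker mark of a positive and significant signal, 28, 29 and 26 of the 34 members passed at day 0, day 3 and day 21. These stood in place of 22, 23 and 23. That mark also admitted more of all genes. Those measured on both arrays were 14583 in place of 12455 at day 3 against day 0. At day 21 they were 14602 in place of 12387 against day 0 and 14813 in place of 12739 against day 3.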
